A study of Gallus gallus with 2 samples.

Results

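Translation factors, the proteins that start, extend and end protein synthesis on the ribosome, and aminoacyl-tRNA synthetases, the enzymes that charge each tRNA with its amino acid, were followed on 56 array features of the 42034 probes of a chicken array. A feature was taken by its deposited gene name (EIF1 to EIF6 without the EIF2AK kinases, EEF, ETF1, GSPT and the synthetase symbols) or by the words tRNA synthetase in its description, which gave 55, and 1 feature of EIF4G1, listed in the files under a locus number, was added by its probe identity. The 56 features stand for 49 genes and a further 3 transcript clusters annotated only by similarity to a synthetase and assigned to no gene. Among the 49 genes, the mitochondrial LARS2, WARS2 and YARS2 also rest on transcript clusters annotated by similarity. By role, 19 of the 56 features were counted as initiation factors, among them EIF4EBP1, an inhibitor of the initiation factor eIF4E. A further 3 are of elongation factors, 1 of a release factor, 18 of cytosolic synthetases and 10 of mitochondrial synthetases. The rest are 1 of a component of the synthetase complex, 1 of a tRNA deacylase and the 3 clusters assigned to no gene.

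The RNA came from intestinal intraepithelial lymphocytes (IEL), the T cell rich population between the epithelial cells of the gut, of broiler chickens aged 14 days. Birds given direct fed microbials (DFM, live microbes added to feed) were set against untreated control birds, with both RNAs hybridised together on each of 2 Agilent arrays. DFM RNA carried Cy5 on replicate 1 and Cy3 on replicate 2. The labels describe the second array both as a biological replicate and as a dye exchange of the first. They give neither the microbes nor the number of birds behind each RNA. Any limma p-value here therefore reflects how far the 2 arrays differ, for the feature itself and pooled over all tested features, which may be technical spread alone.

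Initiation begins when eIF4F, made of the cap-binding eIF4E, the helicase eIF4A and the scaffold eIF4G, loads an mRNA onto the small ribosomal subunit, which carries eIF1, eIF3, eIF5 and the initiator tRNA held by eIF2 with GTP. The exchange factor eIF2B recharges eIF2, and stress kinases that phosphorylate the alpha subunit of eIF2 block that step. Elongation then needs eEF1A to bring charged tRNAs and eEF2 to move the ribosome, and mitochondria use a synthetase set of their own, largely encoded by separate nuclear genes.

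Between 16889 and 21122 probes were well above background in each channel, and 18242 entered the test. T cell markers were present, with CD3D, CD3E, CD8A, CD4 and LCK above background, although the feature of PTPRC was not. Of 12 tested T cell marker features 2 were higher and 2 lower with DFM. On the log2 scale the list's summed signal was 15.27 and 15.01 with DFM against 15.68 and 15.62 in the controls, on replicates 1 and 2. CD3D, among the lower features, alone read 15.07 and 14.80 against 15.51 and 15.46, so that the sum mostly follows this feature. All 11 tested exocrine pancreas marker features were higher with DFM (summed signal 14.48 and 14.43 against 10.64 and 10.63), while features of PRSS2 and PRSS3 were in no channel well above background. Of 17 tested enterocyte marker features 9 were lower and 1 higher (summed signal 19.48 and 19.11 against 19.39 and 19.56), with SI and FABP2 dim. Of the tested B cell features 2 of 5 were lower, of the macrophage features 2 of 6 were higher, and of the red cell features 2 were lower and 1 higher. The part of these other cell types in the results on translation genes was not tested, and in bulk RNA fewer cells of a type and less RNA per cell cannot be told apart.

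Of the 56 features, 48 were tested, of which 45 were well above background in all 4 channels. The features dim in every channel numbered 7 and were EEF1A2, the second features of EIF1B and IARS, the clusters annotated as the mitochondrial LARS2 and WARS2, and 2 clusters annotated only as a lysyl and a phenylalanyl synthetase. A further EIF4A2 feature was left out for an outlier flag of the scanner software. A dim channel was found in 3 tested features, namely SARS1 (DFM on replicate 2), EIF5A2 (DFM on both arrays) and a second lysyl cluster (control on both arrays), and for the last pair the measured ratio is only a bound, at least 1.13-fold lower for EIF5A2 and at least 1.15-fold higher for the cluster, with neither called.

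With DFM, 10 of the 48 tested features were lower and 3 higher by limma at a Benjamini-Hochberg adjusted p under 0.05, and 35 were not called. Lower calls thus made up 20.8% of the tested members, where 10.5% of all tested features were lower, and higher calls 6.25%, where 12.1% of all were higher and 22.6% were called in either direction. The higher calls include EIF4G1, the feature added by its probe identity, while other factors under locus numbers, such as EIF4G3, stayed outside the members. Members were also chosen with earlier results of these data known. The median log2 ratio of DFM over control was -0.14 for the members (-0.21 on replicate 1 and -0.06 on replicate 2) and 0.00087 for all tested features. On both arrays 26 members lay below 0 and 11 above, and for 11 the arrays differed in sign. Of all 18242 tested features, 6972 lay below 0 on both arrays and 6890 above, and for 4380 the arrays differed in sign. Every ratio is measured against the bulk of the probes on its array, since loess normalization sets that bulk to 0, and the offset of 50 added to the signals compresses them.

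**Figure D1:**
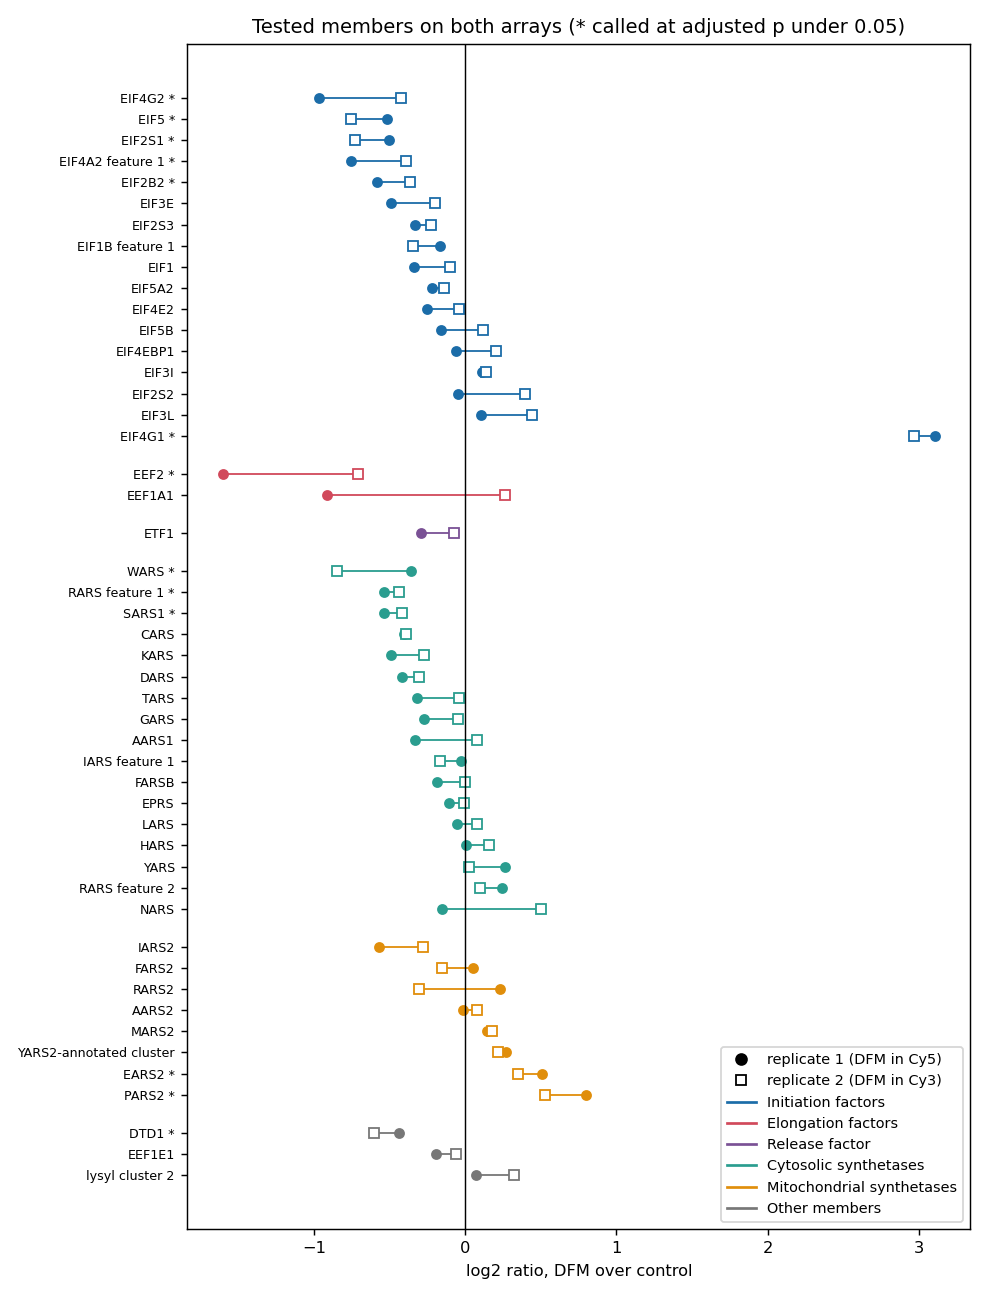
The log2 ratio of DFM over control (horizontal axis) is drawn for each of the 48 tested members by role, with filled circles for replicate 1, open squares for replicate 2 and an asterisk for the 13 called features. EIF4G1 sits near 3 on both arrays, all other members lie between -1.60 and 0.80, and EEF1A1 shows the widest gap between the arrays.

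Most of the shift was small. Among the members, EIF4G1 and EEF2 alone had a mean ratio beyond 1 on the log2 scale, a size that 3.41% of all tested features passed. The arrays differed by more than 0.5 for 5 members, or 10.4%, against 9.96% of all tested features. The scanner software's own error model, with p under 0.01 on both arrays, placed 7 members lower and 2 higher with DFM, where 10.2% of all tested features were lower and a further 10.2% higher, and 6 of the 10 members lower by limma were among those 7.

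**Figure D2:**
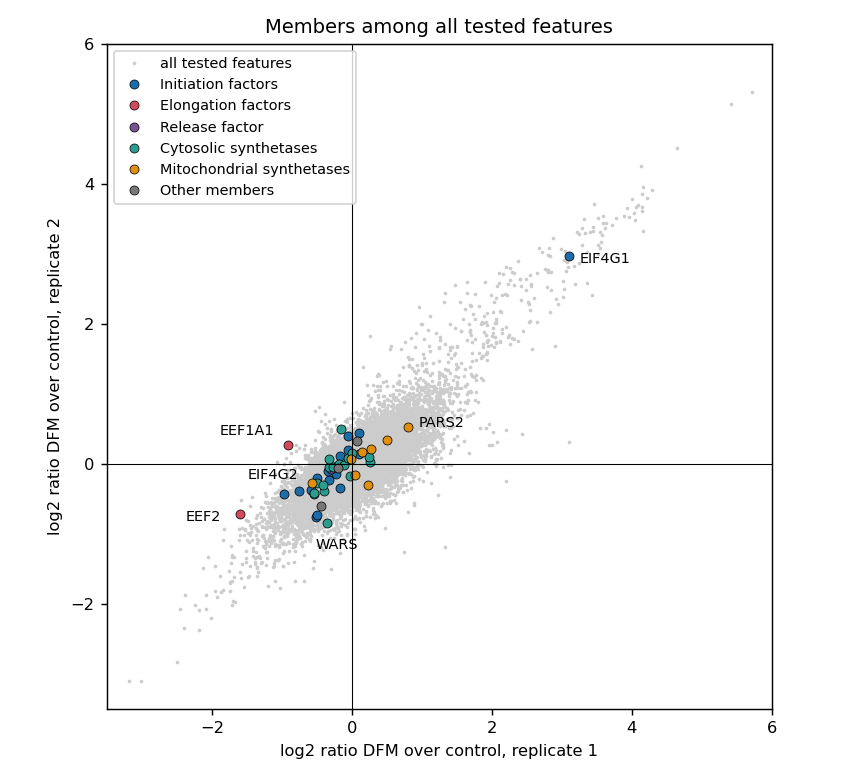
Each grey point is a tested feature, with its log2 ratio of DFM over control on replicate 1 (horizontal axis) and replicate 2 (vertical axis), and coloured points are the members by role. EIF4G1 lies among the few features near 3 on both arrays, EEF2 at the lower left, and EEF1A1 in the quadrant where the arrays differ in sign.

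Among the eIF4 genes, the eIF4F scaffold EIF4G1 rose steeply, while the eIF4F helicase EIF4A2 and the eIF4G relative EIF4G2 fell. EIF4G1 had normalized log2 signals of 10.24 and 10.47 with DFM and of 7.13 and 7.50 in the controls, on replicates 1 and 2 in this order as in all pairs of signals that follow. Both DFM channels stood far above both control channels. The ratio was 3.11 on replicate 1 and 2.97 on replicate 2, a mean of 3.04 (SE 0.13, 95% interval 2.75 to 3.33, n = 2 arrays) or 8.21-fold, with an adjusted p of 1.75e-06 by limma, and it was the 48th highest ratio of all tested features. EIF4G1 was represented by this feature alone, which the array grid places at chr9:15220014-15220073 on the plus strand of galGal2.

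EIF4G2 encodes a scaffold that lacks the part of eIF4G bound by eIF4E and serves initiation without the cap. Its signals were 11.41 and 11.71 with DFM and 12.38 and 12.13 in the controls, so that the channels did not overlap. The log2 ratio was -0.97 and -0.43 on the arrays, with a mean of -0.70 (SE 0.15, limma adjusted p = 0.0150). EIF4A2, a DEAD-box helicase that unwinds leader sequences, read 13.09 and 13.14 with DFM against 13.84 and 13.53, again without overlap. Its ratio was -0.76 and -0.39, with a mean of -0.57 (SE 0.14, limma adjusted p = 0.0206). The EIF4A2 feature left out for its outlier flag had software ratios of -0.62 and -0.70.

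The remaining eIF4 members were not called. EIF4E2, a cap-binding relative of eIF4E that holds mRNAs out of translation, had a mean ratio of -0.15 (95% interval -0.44 to 0.15), and EIF4EBP1, the inhibitor that sequesters eIF4E, 0.07 (-0.23 to 0.37). Features of EIF4E2, EIF4G1 and EIF4A2 lie in this order on chromosome 9 of galGal2, separated by 258 kb and 271 kb. Their mean log2 ratios were -0.15, 3.04 and -0.57, so that neither of these other members shared the high ratio of EIF4G1. Probes of other genes in this stretch were not examined. This neighbourhood was singled out after the values had been seen.

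**Figure D3:**
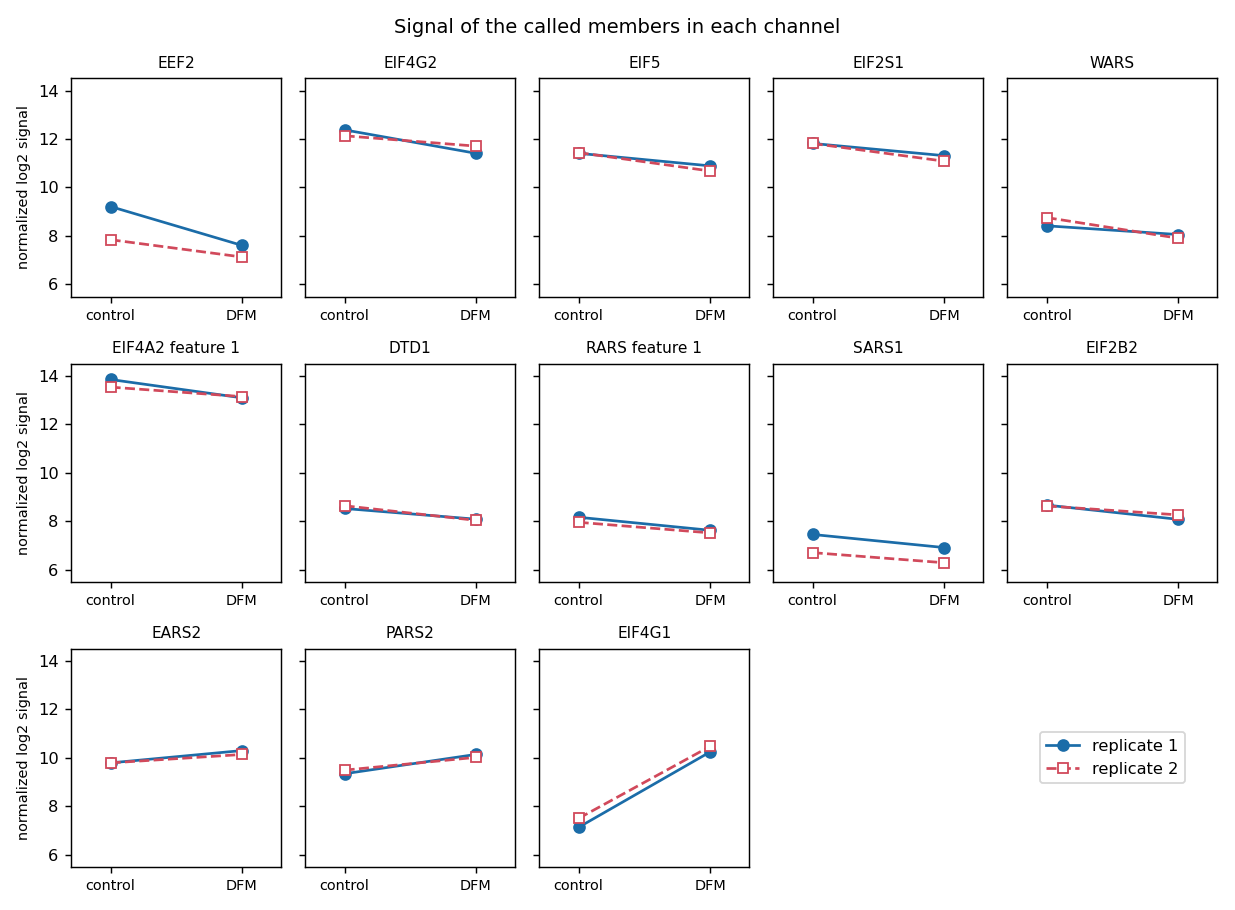
Normalized log2 signal (vertical axis) of the 13 called members in the control and DFM channel of each array, joined by a line per array and ordered from the lowest to the highest mean ratio. The lines slope down from control to DFM in the first 10 panels and up for EARS2, PARS2 and EIF4G1, and for SARS1 the DFM signal of replicate 1 (6.91) lies above the control signal of replicate 2 (6.70).

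The eIF2 and eIF2B group held 4 tested features, of which 2 were lower and 2 not called. So few features cannot be set against the 10.5% of all tested features that were lower. EIF2S1, the alpha subunit that the stress kinases phosphorylate, had signals of 11.31 and 11.09 with DFM and 11.82 on both arrays in the controls. The DFM channels lay below both control channels, and the log2 ratio was -0.50 and -0.73, with a mean of -0.62 (SE 0.13, limma adjusted p = 0.0120). EIF2B2, the beta subunit of the exchange factor, gave 8.07 and 8.26 with DFM against 8.66 and 8.62. Its mean ratio was -0.48 (limma adjusted p = 0.0316). The gamma subunit EIF2S3, which binds GTP and the initiator tRNA, was not called at -0.28 (95% interval -0.57 to 0.01), and the beta subunit EIF2S2 had -0.05 and 0.39 on the arrays.

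Of the features of eIF1 and eIF5 type, 1 of 5 tested was lower, again too few to compare with the share over all tested features. EIF5, which makes eIF2 hydrolyse its GTP once the start codon is found, read 10.89 and 10.68 with DFM and 11.41 and 11.44 in the controls, without overlap. The ratio was -0.52 and -0.76, with a mean of -0.64 (SE 0.13, limma adjusted p = 0.0107). A transcript cluster outside the member rule, annotated as similar to eIF5, went the other way, at 0.41 and 0.22 on the arrays, and was not called. The other tested members of this type were not called, with means of -0.26 for EIF1B, -0.22 for the start codon factor EIF1, -0.18 for EIF5A2, which relieves stalled ribosomes, and -0.03 for the subunit joining factor EIF5B. For eIF3, the large complex that holds the small subunit to the mRNA, the 3 members were not called, with means of -0.35 for EIF3E (adjusted p = 0.0973; unadjusted 0.0307 by limma), 0.12 for EIF3I and 0.27 for EIF3L.

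The array also holds 19 features whose description, but not whose gene name, gives an initiation or elongation factor. Of these 15 were tested, 3 (20%) were lower by limma, where 10.5% of all tested features were lower, and 12 were not called. Their median was -0.28. The lower ones belong to eIF3 subunits, EIF3J at -0.61 (limma adjusted p = 0.0104) and EIF3H at -0.52 and -0.43 on its 2 features. EIF4G3, a further eIF4G scaffold gene, had 0.75 on replicate 1 and 0.03 on replicate 2 and was not called. With these features added, 13 of 63 (20.6%) were lower and 3 (4.76%) higher, against 10.5% and 12.1% of all tested features. The median was -0.18, and this grouping was made after the values had been seen.

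Of the elongation factors, EEF2, the GTPase that moves the ribosome by a codon, fell furthest of all called members. Its signals were 7.61 and 7.13 with DFM and 9.21 and 7.84 in the controls, and both DFM values lay below both control values. The log2 ratio was -1.60 on replicate 1 and -0.71 on replicate 2, with a mean of -1.16 (SE 0.20, 95% interval -1.61 to -0.71), or 2.23-fold lower (limma adjusted p = 0.00492). The size of the fall differed by 0.89 between the arrays, and the control signal itself differed more between the arrays than the DFM signal did. EEF1A1, which carries charged tRNAs to the ribosome, read 13.33 and 13.89 with DFM against 14.24 and 13.63, and the groups overlapped. Its ratio turned from -0.92 to 0.26 between the arrays, and it was not called. A feature outside the member rule, described as eukaryotic translation elongation factor 1, had -0.34 and -0.36 on the arrays and was not called. The release factor ETF1, which reads the stop codons, had a mean ratio of -0.18 (95% interval -0.48 to 0.11).

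Among the cytosolic synthetases 3 of 17 tested features (17.6%) were lower by limma, where 10.5% of all tested features were lower, and 14 were not called. Their median log2 ratio was -0.13, and a set of this size gives too few calls to read its count. The enzyme for tryptophan, WARS, had signals of 8.06 and 7.91 with DFM and 8.42 and 8.76 in the controls, without overlap. Its ratio was -0.36 and -0.85, with a mean of -0.61 (SE 0.15, limma adjusted p = 0.0222). For arginine, the first feature of RARS read 7.62 and 7.51 against 8.16 and 7.95, with a mean ratio of -0.49 (SE 0.13, limma adjusted p = 0.0259), and -0.75 with the software ratio, where it was not called. The second RARS feature gave 12.19 and 11.84 with DFM and 11.94 and 11.74 in the controls, a mean of 0.17 that was not called, so that the features of this gene disagreed. They lie 4.93 kb apart on chromosome 13 of galGal2.

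SARS1, the serine enzyme, had signals of 6.91 and 6.28 with DFM, the latter not well above background, and of 7.45 and 6.70 in the controls. The signals overlapped across the arrays, while the ratio within each array was -0.54 and -0.42 (limma adjusted p = 0.0283). The mean ratio depended on the background treatment, at -0.48 here, -0.97 with an offset of 0 and -1.30 with the software ratio. Close to the threshold but not called was CARS, for cysteine, at -0.40 on replicate 1 and -0.39 on replicate 2 (limma adjusted p = 0.0505). Its mean was -0.66 with an offset of 0, where it was called (limma adjusted p = 0.0381), and -0.85 with the software ratio, where it was not. KARS for lysine and DARS for aspartate, both parts of the large synthetase complex, had means of -0.38 and -0.36, and EPRS, LARS and IARS, also of that complex, -0.06, 0.01 and -0.10, beside the discordant features of RARS, a complex enzyme too. EEF1E1, a scaffold protein of that complex, was at -0.13. NARS, for asparagine, had -0.16 and 0.50 on the arrays.

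A feature named HARS2 in the files is described there as a D-tyrosyl-tRNA deacylase, and its gene identifier belongs to DTD1, an enzyme that removes wrongly attached D-amino acids from tRNA. DTD1 read 8.08 and 8.03 with DFM and 8.52 and 8.63 in the controls, without overlap. The log2 ratio was -0.44 and -0.60, with a mean of -0.52 (SE 0.13, limma adjusted p = 0.0210).

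Of the mitochondrial synthetases 2 of 8 tested features were higher and 6 not called, with a median of 0.09. The 8 include the cluster annotated by similarity as YARS2, which was not called at 0.24. With 12.1% of all tested features higher, a set of this size gives too few calls to read its count, and its difference from the cytosolic set was not tested. PARS2, the mitochondrial enzyme for proline, had signals of 10.14 and 10.02 with DFM and 9.34 and 9.49 in the controls. Its log2 ratio was 0.80 and 0.53, with a mean of 0.66 (SE 0.13, limma adjusted p = 0.00961), and the groups did not overlap. EARS2, for glutamate, read 10.30 and 10.14 against 9.79 on both arrays, with ratios of 0.51 and 0.35 and a mean of 0.43 (SE 0.13, limma adjusted p = 0.0435). In the cytosol a single protein, EPRS, charges both of these amino acids, and its mean ratio was -0.06 (95% interval -0.34 to 0.23).

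Other pairs could be read side by side. For isoleucine the cytosolic IARS had a mean ratio of -0.10 and the mitochondrial IARS2 -0.43 (limma adjusted p = 0.0519), the lowest of the mitochondrial set. For alanine AARS1 had -0.13 and AARS2 0.03, and for phenylalanine FARSB had -0.09 and FARS2 -0.05. For arginine RARS2 gave 0.23 and -0.31 on the arrays. None of these features was called except the first RARS feature, and MARS2 for methionine, with no cytosolic partner among the members, was at 0.16.

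**Figure D4:**
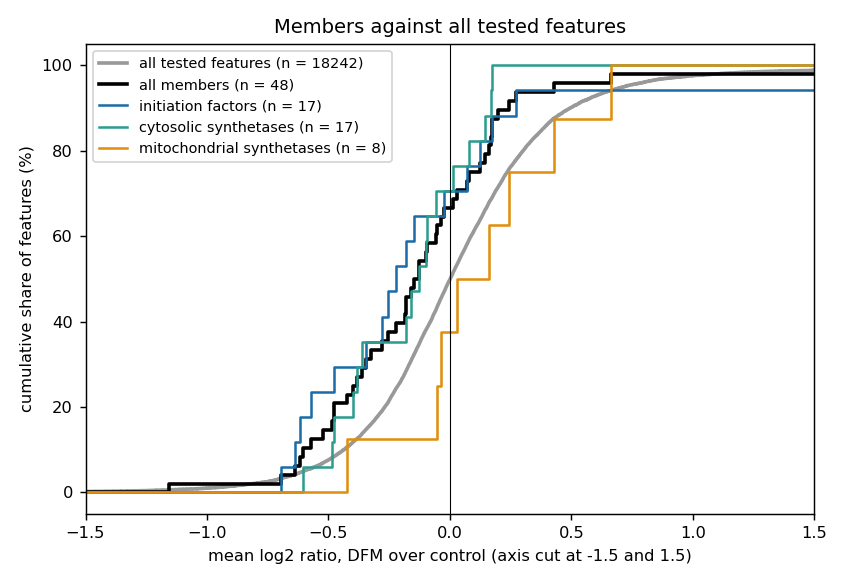
Cumulative share of features (vertical axis, %) by mean log2 ratio of DFM over control (horizontal axis) for all 18242 tested features, the 48 tested members and 3 of their roles. The curves of the 17 initiation factor features and the 17 cytosolic synthetase features run to the left of all tested features over most of the range, with medians of -0.22 and -0.13, and that of the 8 mitochondrial synthetase features to the right, with a median of 0.09.

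By position, 41 of the tested members were placed on a numbered chromosome of galGal2. On chromosome 5, 5 of 6 tested members were lower (EIF4G2, EIF5, EIF2S1, WARS and EIF2B2), and the sixth was CARS. Of all 1007 tested features on that chromosome 11.3% were lower, with a median of -0.05. The 6 lie far apart, from 6284956 (EIF4G2) to 47013912 (EIF5). The split by chromosome was made after the values had been seen and was not tested.

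Genes that control translation from outside the member rule were read from 8 lists with 95 features, of which 69 were tested, 8 were higher and 13 lower by limma, with a median of -0.10. Higher calls made up 11.6% of these, close to the 12.1% of all tested features, and lower calls 18.8%, against 10.5% of all. Each list alone gives too few calls to read its count. Among the eIF2 kinases 1 of 3 tested features was lower, EIF2AK4, the sensor of uncharged tRNA, at -0.50 (limma adjusted p = 0.0241). The other 3 features of EIF2AK4 were too dim to test. EIF2AK2, activated by double-stranded RNA, was not called at -0.40, and neither was the haem-regulated EIF2AK1 at -0.16. In the integrated stress response, the program set off when eIF2 is phosphorylated, 2 of 10 were lower and 1 higher. The central transcription factor ATF4 was lower at -0.53 and TRIB2, a pseudokinase, at -0.55 on 1 of its 2 tested features, while the transcription factor CEBPB was higher at 0.74.

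The list of mTOR and 4E-BP control, the nutrient pathway that releases eIF4E from its inhibitor, had 4 of 16 lower and 2 higher. RHEB, the GTPase that activates mTOR, was lower at -0.92, and PDPK1, MLST8 and TBC1D7 were lower at -0.60, -0.52 and -0.46. AKT2, a kinase upstream of mTOR, was higher at 0.81 and the GTPase RRAGC, part of amino acid sensing, at 0.43. The feature of MTOR itself was not tested for low signal. Among cap and poly(A) binding partners 2 of 12 were lower, the RNA helicase DDX3X at -0.97 and a feature named CYFIP1 at -0.65, and LSM1, an mRNA decay factor, was higher at 0.60. The name CYFIP1 came from RefSeq through the gene identifier, whereas the files describe that feature as similar to a gamma-tubulin complex component, so that its gene is uncertain.

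In ribosome recycling and rescue 2 of 5 were lower, ABCE1, which splits ribosomes after termination, at -0.66 and LTN1, a ligase that marks stalled nascent chains, at -0.70. Of the factor modification list 1 of 8 was higher and 7 were not called, DPH2, which takes part in making the diphthamide residue of eEF2, at 0.47. In the list drawn as synthetase complex scaffolds 1 of 4 tested features was lower, the scaffold AIMP1 at -0.43. That list is wider than its name. Its other tested features, of QRSL1, GATC and PTRH2, are not of complex scaffolds, and none was called. The mitochondrial factors had 3 of 12 higher and 1 lower. A feature of MTIF2, the mitochondrial initiation factor, was higher at 1.18, but its other tested features were at -0.26 and -0.31 and not called, so that the features of this gene disagreed. MRRFP1, the name RefSeq gives to the feature of the ribosome recycling factor, was higher at 0.76 and C12orf65, a rescue factor, at 0.51, and the initiation factor MTIF3 was lower at -0.42.

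**Figure D5:**
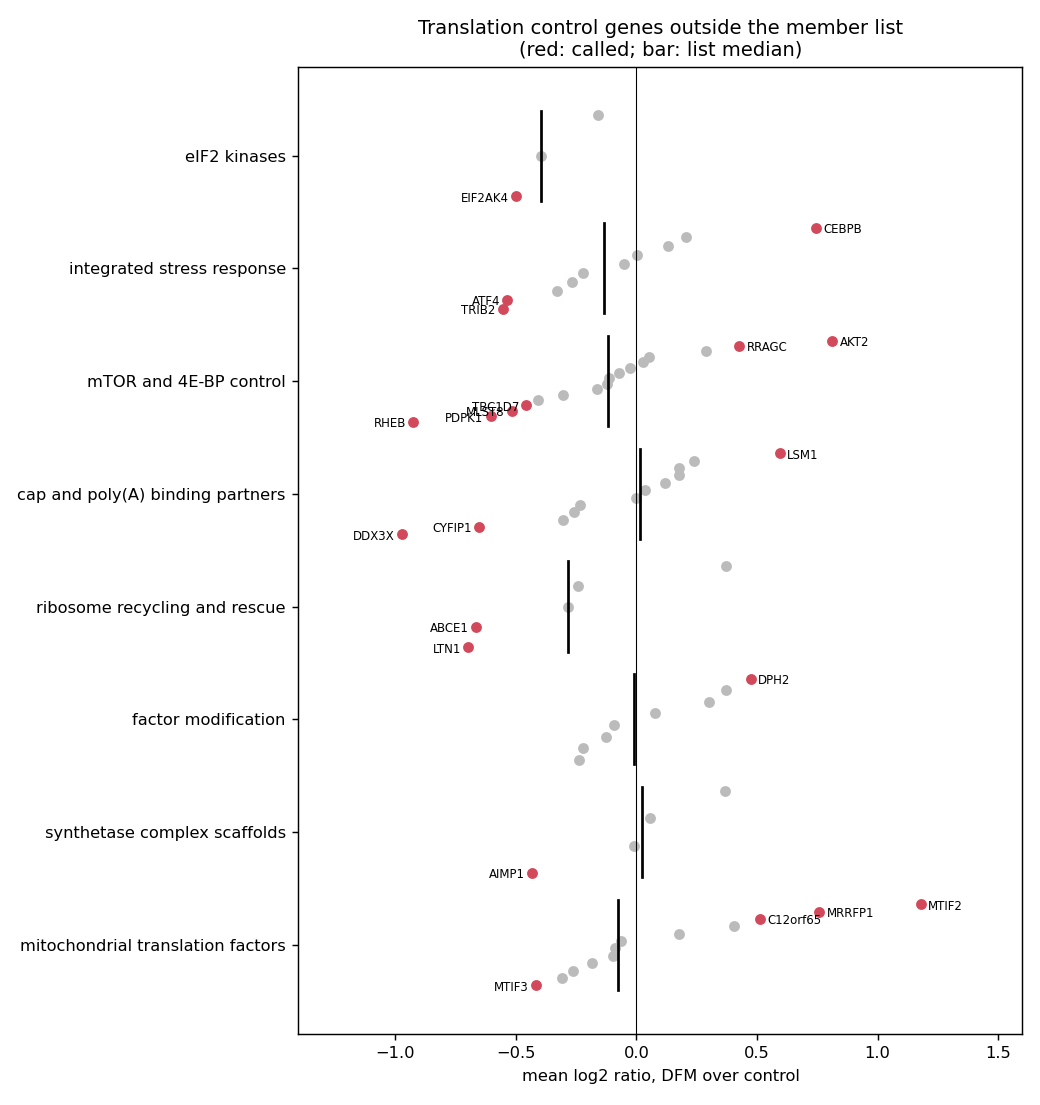
Mean log2 ratio of DFM over control (horizontal axis) of the tested features in 8 lists of translation control genes (vertical axis), with called features in red and named, others in grey and a bar at each list's median. RHEB at -0.92 and DDX3X at -0.97 lie furthest to the left and MTIF2 at 1.18 furthest to the right.

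How many features were called depended on the normalization. Each array's log ratios centred on the median, with no loess, left EIF4G1 as the 1 called member. The scanner software's own ratios left 2 of 48 members higher (EIF4G1 and the second lysyl cluster) and 2 lower (EEF2 and SARS1). With those ratios 1179 of all 18242 tested features were higher and 951 lower. The members' larger share of lower calls in the loess fit was thus not seen there. The split of calls over all tested features was 53.4% higher in the loess fit and 93.2% higher with median centring, where 109 were higher and 8 lower.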

How the data were processed

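Total RNA of DFM-fed and control birds was labelled with Cy3 and Cy5 and hybridised to 2 arrays, per the labels. The deposited intensity values are, per the file headers, the mean signal and median local background of each spot and the processed signals. The deposited log10 ratios of Cy5 over Cy3 and their p-values come from the scanner software, per the file headers. The authors' series table holds log2 values, which equalled the software ratio of Cy5 over Cy3 on replicate 1 (r = 1) and its negative on replicate 2 (r = -1), so that both columns give DFM over control, with medians of -0.274 and 0.204. Agilent Feature Extraction is given as 10.7.3.1 in the submitters' processing notes and as 9.5.3.1 in the file headers, and the grid was built on galGal2.

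Signals were corrected with normexp (offset 50) and normalized by loess within each array in limma 3.58.1 (R 4.3.3). Control spots (1417) had weight 0 in loess and were then left out, as were 5 probes with an outlier flag, and 0 probes were saturated. A probe was kept where DFM or control, or both, stood well above background on the 2 arrays, and was tested against 0 with lmFit and eBayes, two-sided, 1 residual degree of freedom, with Benjamini-Hochberg adjustment over all 18242 and a threshold of 0.05. SE is limma's moderated standard error, which draws the variance of each feature toward a value pooled over all tested features. The fit was also run on simulated data with known changes, a spread drawn from the fit itself and no dye effect. Such data cannot show whether the 2 arrays differ by technical spread alone. A dye term would leave no residual degrees of freedom, and 2 arrays limit the precision. Signals per channel follow loess and Aquantile, and a summed signal is the log2 of the summed linear signals of a list's features. For EIF5A2 and the second lysyl cluster the dim group was also taken at the higher of its own signal and the lowest signal well above background. This left both ratios unchanged.

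Symbols came from a RefSeq table (GRCg7b, names only), which named 48 of the 56 features, and positions from the files. Members and lists were chosen with earlier results of these data known. All called members may be named, with full statistics for up to 8 in each direction, as may genes with several features, complexes and synthetase pairs described in full, and called genes of the lists. Alternatives were an offset of 0, median centring, the software ratio, stricter and no filters on dim probes, and single arrays.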

Additional observations from a re-analysis of the deposited data

How the results depend on the processing

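All 13 called members kept their direction under each alternative fit that was run, and calls were lost under 4 of them. Of the 13, 10 stayed called with an offset of 0, where EIF4A2, EIF2B2 and EARS2 were lost (limma adjusted p = 0.0670, 0.0768 and 0.115). With only probes above background in all channels 12 stayed called, and SARS1 was not tested. With no filter on dim probes 13 stayed called, with the scanner software ratio 3 and with median centring 1. Higher members numbered 1 with median centring, and lower members 0 with median centring and 2 with the software ratio. With an offset of 0, 2 members were higher and 9 lower. Of all 18242 tested features, 2292 were higher and 1839 lower with an offset of 0. These counts were 1179 and 951 with the software ratio, and 109 and 8 with median centring. Higher features of the translation control lists numbered 4 with an offset of 0, 0 with median centring and 1 with the software ratio, and lower ones 0 with median centring and 3 with the software ratio. With median centring limma called 1 member at an unadjusted p under 0.05, against 18 with loess, and the medians of all tested features were 0.44 and -0.47 on the arrays. The cause of the lost calls was not tested. EIF4G1 was called in every fit, with a log2 ratio between 2.98 and 3.70. The members' median was -0.06 without replicate 1 and -0.21 without replicate 2, where single arrays allow no test. CARS and IARS2, just short of the threshold, were called lower both under the stricter filter on dim probes and with no filter, and CARS also with an offset of 0. Each array compares both RNAs as a ratio, so the test of that ratio against 0 already pairs DFM with control within an array.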
